A study of Mus musculus with 8 samples.

Results

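The 10 genes described here encode proteins of the acute phase response and products of reactive glia: the serum amyloids Saa1, Saa2 and Saa3, the siderophore-binding lipocalin Lcn2, haptoglobin (Hp), ceruloplasmin (Cp), the protease inhibitor Serpina3n, the metalloreductase Steap4, the pentraxin Ptx3 and the prostaglandin synthase Ptgs2. Of these, Steap4 is a membrane protein and Ptgs2 an enzyme of the endoplasmic reticulum, and the others are secreted. The genes were chosen by name, with earlier results of the same lithium comparison known. They were represented by 21 of 45037 probe sets, each annotated to 1 gene symbol only, and by 10 of the 18193 genes that had such a probe set. The main probe set of a gene was selected on its mean log2 signal over the 8 arrays, the highest being taken, and 5 of the genes had 1 probe set. The differences between lithium and control are therefore given as a description of these genes, with adjusted p-values from the fit over the whole table.

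The study asked how lithium acts on white matter, using optic nerves cultured whole from mice aged 35 to 45 days. Control nerves were kept for 3 days in organotypic medium with saline, and lithium-treated nerves for 3 days in the same medium with 20 mM lithium chloride. Each group had 4 samples, and 1 Affymetrix Mouse Genome 430 2.0 array was hybridised per sample. The labels give 6 nerves of C57BL/6 mice per sample. The methods instead give the C57/BL10 strain and, for the transcriptome, nerves of 6 mice, fewer nerves than 4 such samples would hold. All nerves were wild type, had been taken with the retina attached and had been cleaned of the arachnoid, and the medium of both groups held horse serum. Whether the 4 samples of a group were separate cultures or animals is stated in neither source, and the p-values then measure nothing more than the spread between these samples, possibly a technical one. The deposited intensities were MAS5 signals on a linear scale, a summary that sets each probe against its mismatch partner, and every array had been scaled to the same trimmed mean. Changes are given as log2 fold changes, lithium minus control, of signals floored at 1.

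Acute phase proteins are plasma proteins that the liver secretes within hours of infection or injury, when interleukin 6 and its relatives act through STAT3, and interleukin 1 through NF-kB and C/EBP factors. Several of the same genes are made outside the liver, and in the central nervous system Lcn2, Serpina3n, Steap4, Cp, Ptx3 and Ptgs2 are used as marks of reactive astrocytes. The proteins bind lipids, iron, haemoglobin and copper, inhibit proteases, opsonise microbes or, for Ptgs2, start prostaglandin synthesis.

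The serum amyloid genes and Lcn2 are shown by the sequence upstream of their start, since the results part Saa1 and Saa2 from Saa3 and Lcn2. Saa1, Saa2 and Saa3 lie near each other on chromosome 7, at 46740497 to 46743181, 46751833 to 46754313 and 46711998 to 46719615 of the mouse assembly GRCm38.p6. Lcn2 lies on chromosome 2, at 32384637 to 32387739, and Hp, Cp, Serpina3n, Steap4, Ptx3 and Ptgs2 lie on chromosomes 8, 3, 12, 5, 3 and 1. The stretches printed are the 250 bases before each start, 5′ to 3′ on the gene's strand, from RefSeq. Capitals mark letters that match, on either strand, the kB form (GGG and CC with 5 free bases between them) or the C/EBP form TTGCNNAA. The stretches are chr7:46742981-46743230 (minus strand) for Saa1, chr7:46751583-46751832 (plus strand) for Saa2, chr7:46715677-46715926 (minus strand) for Saa3 and chr2:32387740-32387989 (minus strand) for Lcn2. Those of Saa1 and Saa3 lie partly or wholly inside the annotated span of the gene, upstream of the start that the promoter table uses.
Saa1: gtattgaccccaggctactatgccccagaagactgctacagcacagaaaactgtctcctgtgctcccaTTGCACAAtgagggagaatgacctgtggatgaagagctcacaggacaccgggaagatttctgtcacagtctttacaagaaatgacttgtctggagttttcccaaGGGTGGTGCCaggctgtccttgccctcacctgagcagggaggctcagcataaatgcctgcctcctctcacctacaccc
Saa2: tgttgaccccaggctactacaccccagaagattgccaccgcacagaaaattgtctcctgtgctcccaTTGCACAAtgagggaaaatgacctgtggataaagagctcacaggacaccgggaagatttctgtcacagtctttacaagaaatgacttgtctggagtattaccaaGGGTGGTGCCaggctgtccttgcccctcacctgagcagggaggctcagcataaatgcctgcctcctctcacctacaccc
Saa3: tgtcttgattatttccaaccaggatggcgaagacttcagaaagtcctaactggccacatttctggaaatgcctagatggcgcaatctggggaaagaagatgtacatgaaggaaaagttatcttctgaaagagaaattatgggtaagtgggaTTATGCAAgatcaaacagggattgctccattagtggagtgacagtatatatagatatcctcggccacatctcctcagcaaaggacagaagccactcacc
Lcn2: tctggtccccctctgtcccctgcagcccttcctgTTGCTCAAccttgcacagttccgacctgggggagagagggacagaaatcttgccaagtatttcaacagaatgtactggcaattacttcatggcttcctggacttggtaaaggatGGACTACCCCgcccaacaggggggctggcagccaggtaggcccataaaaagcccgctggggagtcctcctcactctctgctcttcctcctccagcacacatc
The stretches of Saa1 and Saa2 were identical in 238 of 251 aligned columns (94.8%), against 52.2% for Saa1 and Saa3, 53.5% for Saa1 and Lcn2 and 49.5% for Saa3 and Lcn2. Saa1 and Saa2 held the same C/EBP letters, ending at base -175 of Saa1 and -176 of Saa2, and the same kB letters, ending at -69 and -70. Saa3 held the C/EBP letters on the minus strand at -99 to -92 and no kB letters. Lcn2 held the C/EBP letters at -216 to -209 and the kB letters on the minus strand at -102 to -93. RefSeq windows, from 250 bases before to 50 after a start, were found for 9 of the 10 genes (not Hp). Of these 9 genes, 8 held the kB letters, 8 the C/EBP letters, 1 the STAT letters TTCNNNGAA and 2 the TATA letters TATAAA. Among all 32851 windows the shares were 50.8%, 10.8%, 8.30% and 13.6%. A match is a match of letters only, and nothing bound to these stretches was measured.

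Across the 10 genes, Saa1 and Saa2 fell in lithium to signals of 2.52 to 14.8 by their main probe sets, and Lcn2 was the only gene with a higher mean. By their main probe sets 9 genes had a lower and 1 a higher mean log2 signal in lithium. In limma's fit 2 of the 10 passed an adjusted p of 0.05 as lower (Saa1 and Saa2) and 0 as higher, where 2.05% of the 18193 genes passed as lower and 1.18% as higher. At an unadjusted p under 0.05 the counts were 7 lower and 0 higher, where 12.6% of all genes were lower and 9.38% higher. All lithium values lay below all control values in 5 genes (Saa1, Saa2, Serpina3n, Ptx3 and Ptgs2), where 8.92% of all genes had that order, and 0 genes had the opposite order, which 6.47% of all genes had. Over the 21 probe sets, 19 had a lower mean and 3 of them passed. The median log2 fold change was -0.95 over the 10 genes, also with Hp at its bound, and -0.00 over all genes. Since the genes were picked with these differences known, their share beside that of all genes is no evidence for the group.

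**Figure D1:**
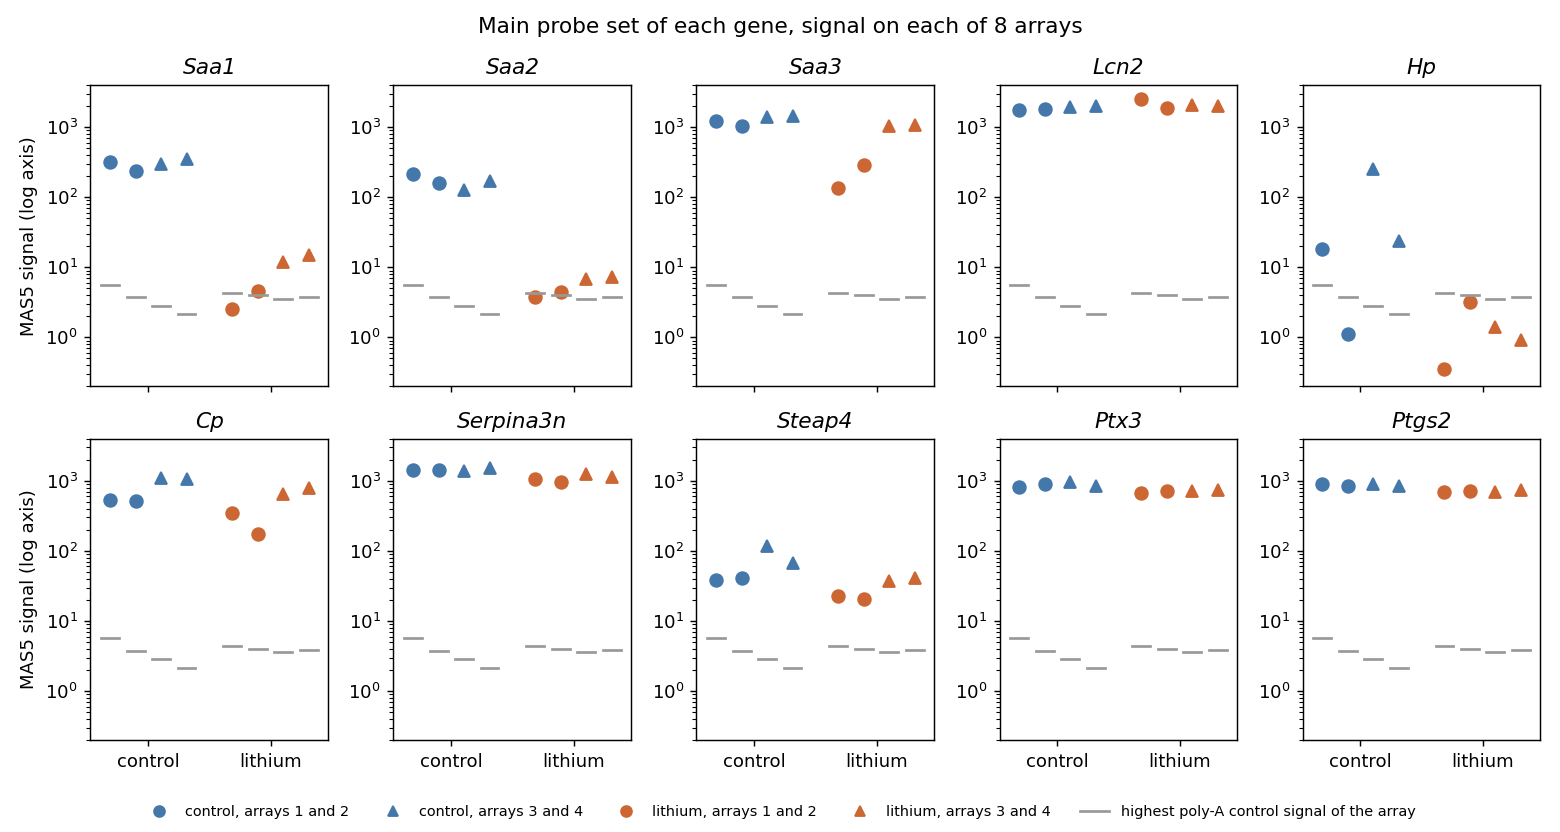
MAS5 signal (log axis) of the main probe set of each of the 10 genes on the 4 control (blue) and 4 lithium (orange) arrays, with circles for arrays 1 and 2, triangles for arrays 3 and 4, and a grey line at the highest signal of the poly-A controls of that array. Saa1 and Saa2 lie above 100 in control and below 15 in lithium, Saa3 and Cp are spread within lithium, and Lcn2 lies between 1731 and 2557 on all arrays.

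The arrays themselves differed in some respects that touch these values. The highest signal of the 27 probe sets for poly-A control transcripts, taken as the background limit of an array, ranged from 2.13 to 5.64, and the median signal from 12.3 to 17.5. Lithium array 1 stood apart: it had the lowest median, the largest excess of the 3′ over the 5′ probe set of Gapdh in log2 (0.53, against 0.34 to 0.43 on the others) and a signal of 4274 for the 5′ hybridisation control of P1 cre (1927 to 2446 on the others). Without it, Saa1 and Saa2 still fell, with log2 fold changes of -5.02 (limma's adjusted p = 0.0284) and -4.75 (limma's adjusted p = 0.00973). Arrays 1 and 2 also deviated from their group means in common, as did arrays 3 and 4, and values within these pairs are given for Saa1, Saa2, Saa3, Lcn2, Cp and Serpina3n.

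Saa1 and Saa2 encode the serum amyloids of high density lipoprotein that rise most steeply in an acute phase. The signal of Saa1 on control arrays 1 to 4 was 321, 240, 302 and 356, and on lithium arrays 1 to 4 it was 2.52, 4.65, 11.8 and 14.8. The groups did not overlap, and on lithium array 1 the signal was under the background limit. The mean was 305 ± 48.4 in control and 8.44 ± 5.80 in lithium (SD, n = 4), 2.77% of the control mean. The log2 fold change was -5.49 (SE 0.57, limma's adjusted p = 0.0141), or 44.9-fold lower. The size depends on how dim signals are treated, and on the scale of log2 of the signal plus 16 the log2 change was -3.73 for Saa1 and -3.06 for Saa2, which passed as well. Within arrays 1 and 2 the log2 change of Saa1 was -6.34 and within arrays 3 and 4 it was -4.64. When the replicate number entered as a block the adjusted p of limma was 0.0564, past the threshold no longer, and without any 1 array it was between 0.0260 and 0.0493.

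A second probe set of Saa1 fell as well, from signals of 91.5, 57.5, 91.4 and 135 on the control arrays to 0.196, 0.237, 2.94 and 1.93 on the lithium arrays. All 4 lithium values were below the background limit of their array, so that the change is at least 23.0-fold lower (limma's adjusted p = 0.00923). That bound sets the control mean against the background limits of the lithium arrays, on the log2 scale.

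Saa2 had 1 probe set, with signals of 212, 157, 125 and 170 in control and of 3.83, 4.44, 6.84 and 7.27 in lithium. The groups did not overlap, and 3 of the 4 lithium values were above the background limit of their array. The mean was 166 ± 36.2 in control and 5.60 ± 1.71 in lithium (SD, n = 4), 30.3-fold lower by mean log2 values (log2 fold change -4.92, SE 0.26, limma's adjusted p = 0.00436). Within arrays 1 and 2 the log2 change was -5.47 and within arrays 3 and 4 it was -4.37. The fall passed in each of the 8 fits without 1 array (adjusted p from 0.00962 to 0.0253) and with the block (adjusted p = 0.0487). The accession that the array annotation lists for the main Saa1 probe set is the one it lists for the Saa2 probe set, and RefSeq assigns it to Saa2. The accession of the second Saa1 probe set is that of Saa1. The main Saa1 probe set therefore cannot be told apart from Saa2 by its annotation, and the lower bound of the second probe set is the value that belongs to Saa1 by accession. How far the Saa2 probe set also reads Saa1 was not tested, so the main Saa1 value and the Saa2 value may share signal.

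Saa3, the serum amyloid that macrophages, fibroblasts and glia make outside the liver, followed another pattern. Its signal was 1236, 1021, 1402 and 1434 in control and 137, 290, 1028 and 1067 in lithium. Lithium arrays 1 and 2 were far below every control array, whereas lithium arrays 3 and 4 reached the lowest control value, so that the groups overlapped. The mean was 1273 ± 189 in control and 630 ± 486 in lithium (SD, n = 4), with a log2 fold change of -1.47 (standard error 0.68) that did not pass (limma's adjusted p = 0.329). Within arrays 1 and 2 the log2 fold change was -2.50 and within arrays 3 and 4 it was -0.44, a difference that was not tested. Without lithium array 1 the log2 fold change was -0.89.

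**Figure D2:**
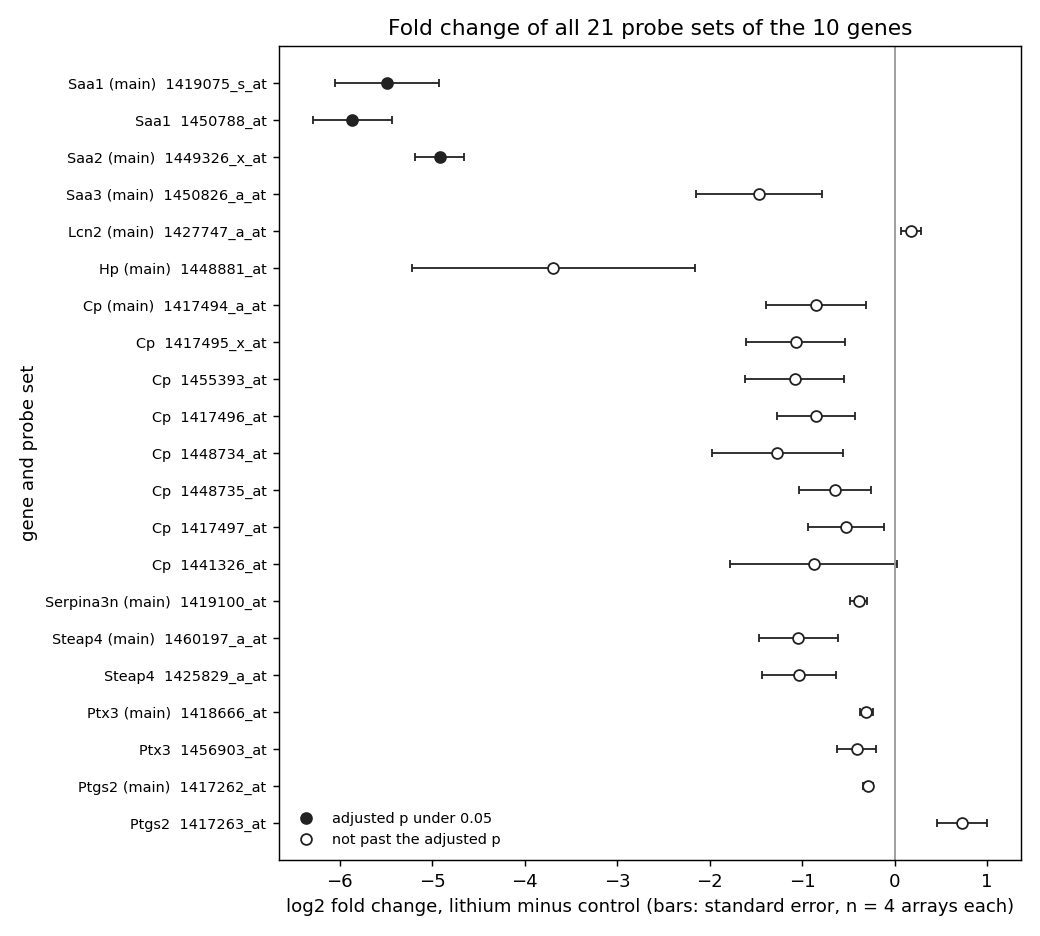
Log2 fold change, lithium minus control, of all 21 probe sets of the 10 genes, with bars for the standard error of limma (n = 4 arrays each) and filled points for an adjusted p under 0.05. The 3 filled points are the probe sets of Saa1 and Saa2, at -5.86 to -4.92, and the points to the right of 0 are Lcn2 (0.18) and the second probe set of Ptgs2 (0.73).

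Lcn2 takes up bacterial siderophores with their iron, marks reactive astrocytes, and was far above background on every array. Its signal was 1731, 1795, 1925 and 1993 in control and 2557, 1897, 2038 and 1998 in lithium. The highest value was that of lithium array 1, and the other lithium arrays lay within or just above the control range. The mean was 1861 ± 119 in control and 2123 ± 296 in lithium (SD, n = 4; log2 change 0.18, SE 0.11, limma's adjusted p = 0.451). Without lithium array 1 the log2 fold change was 0.09, and within arrays 1 and 2 it was 0.32 and within arrays 3 and 4 0.04. Gfap, whose filaments define astrocytes, had a mean of 1593 ± 97.1 in control and 1487 ± 170 in lithium (SD, n = 4; log2 change -0.11, limma's adjusted p = 0.668).

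Haptoglobin, ceruloplasmin and Steap4 handle haemoglobin, iron and copper: haptoglobin captures free haemoglobin, ceruloplasmin oxidises iron for export, and Steap4 reduces iron and copper at membranes. Each had a lower mean in lithium, and the spread between arrays was wide in all of them. The Hp signal was 18.4, 1.13, 253 and 23.7 in control, and 0.353, 3.18, 1.40 and 0.913 in lithium. On 3 of the 4 control arrays and on 0 of the 4 lithium arrays it was above the background limit, and control array 3 alone was above 24. With the lithium arrays set at their background limits, Hp was at least 4.81-fold lower, and the difference did not pass (limma's adjusted p = 0.271). Without control array 3 the bound was 2.02-fold.

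Cp was measured by 8 probe sets, which all had a lower mean in lithium, and in 0 of the 8 did the groups part without overlap. Its main probe set had signals of 538, 507, 1095 and 1065 in control and of 348, 173, 648 and 778 in lithium. In each group arrays 3 and 4 were the high ones, by 1.05 in control and 1.53 in lithium on the log2 scale. The mean was 801 ± 322 in control and 487 ± 276 in lithium (SD, n = 4; log2 change -0.85, SE 0.54, limma's adjusted p = 0.486). Over the 8 probe sets the log2 fold change ran from -1.27 to -0.53. Within the pairs of arrays the main probe set gave -1.09 and -0.61, and without lithium array 2 it gave -0.42.

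Steap4 resembled Cp in its split between pairs of arrays. The signal of its main probe set was 38.1, 41.4, 118 and 68.2 in control and 22.4, 20.4, 37.5 and 41.2 in lithium. Arrays 3 and 4 were above arrays 1 and 2 in both groups, and lithium array 4 reached the control range. The mean was 66.4 ± 36.9 in control and 30.4 ± 10.5 in lithium (SD, n = 4; log2 change -1.04, SE 0.43, limma's adjusted p = 0.264). With a term for arrays 1 and 2 against 3 and 4 the same fold change passed (limma's adjusted p = 0.0328). It did not pass with the replicate block (limma's adjusted p = 0.103) or in any fit without 1 array (limma's adjusted p from 0.249 to 0.441). Cp and Steap4 were the 2 of the 10 genes in which arrays 3 and 4 exceeded arrays 1 and 2 by at least 1.5-fold in both groups without overlap, a pattern of 4.22% of all genes. The second probe set of Steap4 was near the background, at 1.05 to 3.60 in control and 0.0988 to 1.62 in lithium, and gives no measured fold.

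Serpina3n, an extracellular inhibitor of serine proteases and a mark of reactive astrocytes, had signals of 1444, 1409, 1373 and 1517 in control and of 1060, 954, 1251 and 1148 in lithium. All lithium values were below all control values, with a lithium mean at 76.9% of the control mean. The means were 1435 ± 61.4 and 1103 ± 127 (SD, n = 4), and the log2 fold change of -0.39 (standard error 0.09) did not pass (limma's adjusted p = 0.0904). With the term for arrays 1 and 2 against 3 and 4 the adjusted p of limma was 0.04998, with the replicate block it was 0.141 and after median centring 0.455. Within arrays 1 and 2 the log2 fold change was -0.50 and within arrays 3 and 4 it was -0.27.

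Ptx3, a long pentraxin that opsonises microbes and binds complement, had signals of 814, 912, 958 and 831 in control and of 668, 715, 711 and 749 in lithium. The groups did not overlap, and their means were 879 ± 67.8 and 711 ± 33.2 (SD, n = 4). The log2 fold change of -0.30 (standard error 0.07) did not pass (limma's adjusted p = 0.0930). With the replicate block limma's adjusted p was 0.137, and after median centring it was 0.571 for a log2 change of -0.22. The second probe set of Ptx3 was dim and its groups overlapped, at 15.0 to 25.0 in control and 11.7 to 17.6 in lithium (log2 fold change -0.41, limma's adjusted p = 0.383).

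Ptgs2, the inducible cyclooxygenase, had signals of 891, 845, 897 and 836 in control and of 685, 719, 686 and 749 in lithium by its main probe set. The groups did not overlap and the spread within each was small, with means of 867 ± 31.0 and 710 ± 30.5 (SD, n = 4). The log2 fold change of -0.29 (standard error 0.06) just missed the threshold (limma's adjusted p = 0.0565), and passed with the term for arrays 1 and 2 against 3 and 4 (adjusted p = 0.0421) and on the scale of log2 of the signal plus 16 (adjusted p = 0.0275). With the replicate block limma's adjusted p was 0.140, and after median centring it was 0.626 for a log2 change of -0.20. The second probe set of Ptgs2 had the opposite direction, with signals of 111, 85.0, 66.6 and 65.8 in control and of 101, 203, 137 and 112 in lithium. Its groups overlapped by lithium array 1 and control array 1, and its log2 fold change of 0.73 (standard error 0.27) did not pass (limma's adjusted p = 0.220). Both probe sets are annotated to the same accession, and the direction of Ptgs2 depended on which was taken.

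The enzymes and receptors around Ptgs2 were measured by 14 of 16 listed genes, of which 2 fell and 0 rose (5 and 1 at an unadjusted p under 0.05). Pla2g4a, the phospholipase that frees arachidonic acid for Ptgs2, had a mean of 223 ± 16.7 in control and 112 ± 30.6 in lithium (SD, n = 4; log2 change -1.03, SE 0.18, limma's adjusted p = 0.0424). Hpgd, which inactivates prostaglandins, fell from 15.9 ± 2.17 to 3.24 ± 1.15 (SD, n = 4, log2 change -2.35, SE 0.26, limma's adjusted p = 0.0162). The groups of both genes did not overlap, and Hpgd was above background on 2 of the 4 lithium arrays. With the replicate block the adjusted p of limma was 0.0850 for Pla2g4a and 0.0662 for Hpgd. Without 1 array Pla2g4a passed only in the fit without lithium array 3, and Hpgd in all but those without control array 3 or 4. Ptges, the terminal synthase of prostaglandin E2, had means of 843 ± 89.0 and 522 ± 255 (SD, n = 4) and did not pass (limma's adjusted p = 0.374). The median log2 fold change over the 14 genes was -0.36.

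The cytokines and receptor chains known to induce acute phase genes were all measured, 18 of 18, and 0 passed in limma's fit as lower or higher (9 lower and 1 higher at an unadjusted p under 0.05). The shares of all genes at that unadjusted limit, 12.6% lower and 9.38% higher, apply to the unadjusted counts of this list and of the others. Their median log2 fold change was -0.25. Il6, the main inducer in liver, had means of 126 ± 20.5 in control and 70.7 ± 23.3 in lithium (SD, n = 4; log2 change -0.87, limma's adjusted p = 0.111). Il11, of the same family, had means of 307 ± 110 and 95.6 ± 26.2 (SD, n = 4; log2 change -1.66, limma's adjusted p = 0.0563). Il1b, an interleukin 1 that drives Saa1 and Saa2 through NF-kB, had a higher mean in lithium, 33.1 ± 10.05 against 17.9 ± 3.24 (SD, n = 4, log2 change 0.86, limma's adjusted p = 0.103). Il1a, the other interleukin 1 of the list, had a lower mean in lithium, 15.7 ± 1.31 against 32.1 ± 12.8 (SD, n = 4, log2 change -0.96, limma's adjusted p = 0.113). Lif, also of the Il6 family, had a higher mean in lithium, 425 ± 138 against 306 ± 27.4 (SD, n = 4). Its log2 change was 0.43 (limma's adjusted p = 0.346). The groups of Il6, Il11, Il1a, Il1b and Lif did not overlap, Il1b and Lif in the opposite direction to the others. Over the list, all lithium values lay below all control values in 6 genes and above them in 2. The shares of all genes with these orders were 8.92% and 6.47%. The cytokine genes named here and the other genes named below that did not pass were chosen after their values were seen.

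Of 15 transcription factors and feedback inhibitors of the response 13 were measured, and 0 passed in either direction in limma's fit (4 lower and 1 higher at an unadjusted p under 0.05, median log2 fold change -0.30). Cebpd, a C/EBP factor of the acute phase, had means of 424 ± 31.0 in control and 301 ± 35.8 in lithium (SD, n = 4; limma's adjusted p = 0.0638). Socs3, the inhibitor that STAT3 induces, had means of 514 ± 15.3 and 382 ± 56.6 (SD, n = 4; limma's adjusted p = 0.106). Stat3 itself had means of 282 ± 23.9 and 229 ± 27.2 (SD, n = 4; limma's adjusted p = 0.188). Rela, a subunit of NF-kB, had the higher mean in lithium, 319 ± 15.3 against 258 ± 19.8 (SD, n = 4; limma's adjusted p = 0.0859).

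Among other secreted acute phase proteins 19 of 20 genes were measured, and 0 passed in either direction in limma's fit (3 lower and 0 higher at an unadjusted p under 0.05, median log2 fold change -0.05). Lrg1, a leucine-rich glycoprotein of plasma, had means of 34.3 ± 17.6 and 2.72 ± 3.25 (SD, n = 4; limma's adjusted p = 0.0529), and was above background on 1 of the 4 lithium arrays. Lbp, which presents lipopolysaccharide, had means of 135 ± 63.7 and 25.96 ± 20.1 (SD, n = 4, log2 change -2.60, limma's adjusted p = 0.0992). Orm2 had a higher mean in lithium, 252 ± 116 against 128 ± 45.3 (SD, n = 4, log2 change 0.87, limma's adjusted p = 0.411), and its groups overlapped. Apcs and Alb, which the liver makes in bulk, were not above background on any array. Saa4, Crp and Itih4 were above it on 1 of the 8 arrays, Hpx and Fgb on 2 and Fgg on 3. The median of the list therefore includes genes that were hardly detected. The receptors and clearance partners of the 10 proteins (9 of 10 measured) had 0 calls in either direction, with 2 lower and 1 higher at an unadjusted p under 0.05 and a median of -0.14.

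Iron and copper handling genes (13 of 15 measured) also had 0 calls in limma's fit, with 3 lower and 0 higher at an unadjusted p under 0.05 and a median of -0.20. Steap1 had means of 117 ± 41.7 and 34.7 ± 11.1 (SD, n = 4; log2 change -1.73, limma's adjusted p = 0.0662), and Steap2 had means of 32.7 ± 11.6 and 8.06 ± 3.48 (SD, n = 4; log2 change -2.05, limma's adjusted p = 0.0532). Both are metalloreductases of the family of Steap4. Fth1, the heavy chain of ferritin, had means of 2498 ± 100.2 and 2660 ± 319 (SD, n = 4; limma's adjusted p = 0.712).

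Other genes of reactive astrocyte lists were measured for 25 of 27, with 2 lower and 0 higher in limma's fit (7 and 1 at an unadjusted p under 0.05) and a median log2 fold change of -0.26. The 2 that fell were Srgn, a proteoglycan of secretory granules, from 1380 ± 101 to 922 ± 84.8 (SD, n = 4; limma's adjusted p = 0.0324), and Tm4sf1, a tetraspanin-like membrane protein, from 913 ± 47.3 to 559 ± 92.6 (SD, n = 4; limma's adjusted p = 0.0376). Both are also made by cells other than astrocytes. Timp1, a metalloprotease inhibitor, had means of 1884 ± 94.9 and 977 ± 402 (SD, n = 4; limma's adjusted p = 0.126), and Cxcl10, a chemokine, had means of 1012 ± 411 and 1599 ± 303 (SD, n = 4; limma's adjusted p = 0.289).

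**Figure D3:**
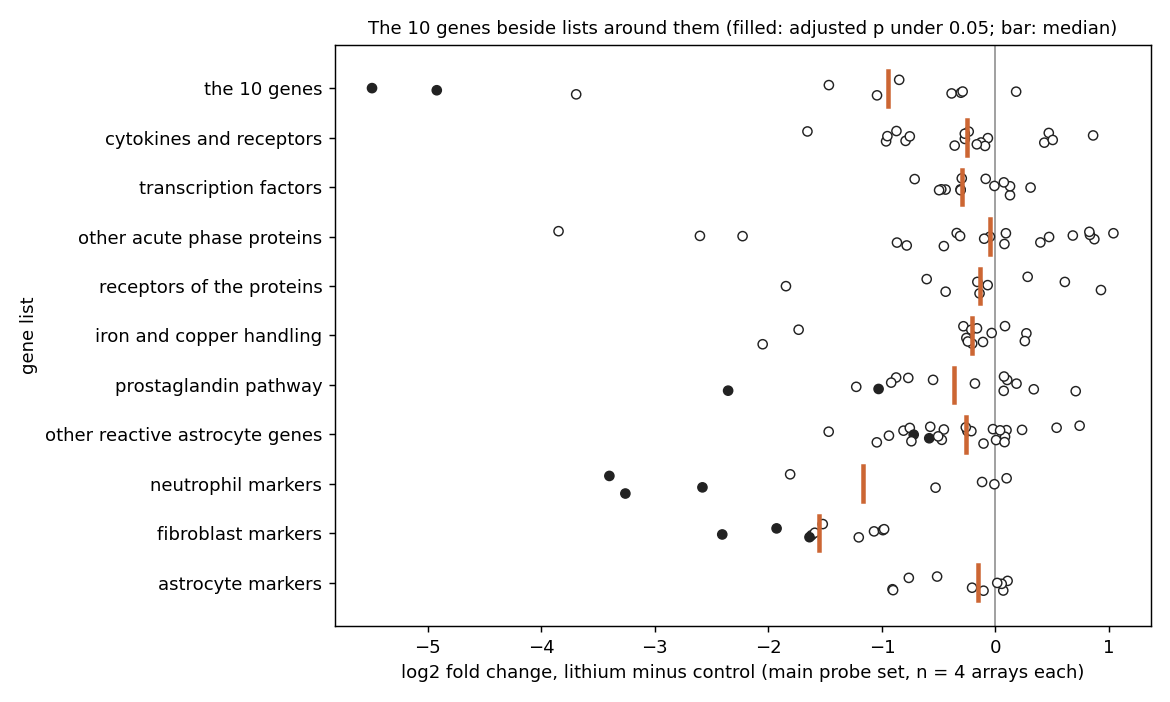
Log2 fold change, lithium minus control, of each gene (points, main probe set, n = 4 arrays each) in the 10 genes and in 10 lists around them, with filled points for an adjusted p under 0.05 in limma and a bar at the median. The median of the 10 genes is -0.95, those of the pathway lists lie between -0.36 and -0.05, and those of neutrophil and fibroblast markers are -1.17 and -1.56.

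The arrays measured a mixture of cells, in which fewer cells of a type and less RNA per cell cannot be told apart. The markers of the labelled tissue were present: oligodendrocyte markers (7 of 8 measured) summed to 10232 to 11151 in control and 10160 to 13277 in lithium, and astrocyte markers (10 of 10) to 7340 to 7696 and 6439 to 7717, with 0 calls in either list. At an unadjusted p under 0.05 there were 0 oligodendrocyte genes and 1 lower astrocyte gene. Retinal markers (7 of 8 measured) summed to 93.0 to 148 in control and 90.7 to 207 in lithium, had 0 calls also at an unadjusted p under 0.05, and Pde6b and Crx among them were not above background on any array.

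Fibroblast markers had a lower summed signal on all lithium arrays. All 10 were measured, with 3 lower (Foxc1, Col3a1 and Lum) and 0 higher in limma's fit, 7 lower at an unadjusted p under 0.05, and a median log2 fold change of -1.56. Their summed signal on arrays 1 to 4 was 5001, 3614, 5245 and 5721 in control and 890, 1443, 2463 and 2544 in lithium, with no overlap, and lithium arrays 1 and 2 were again the lowest. Foxc1, a transcription factor of meningeal fibroblasts, fell from 143 ± 16.5 to 46.3 ± 7.14 (SD, n = 4; log2 change -1.64, SE 0.14, limma's adjusted p = 0.0108, 0.0564 with the replicate block). Col3a1, a fibrillar collagen, fell from 1067 ± 234 to 215 ± 95.8 (SD, n = 4; log2 change -2.41, limma's adjusted p = 0.0321, 0.0663 with the block). The part of this difference in the values of Saa1, Saa2, Saa3, Cp and Steap4 was not tested.

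**Figure D4:**
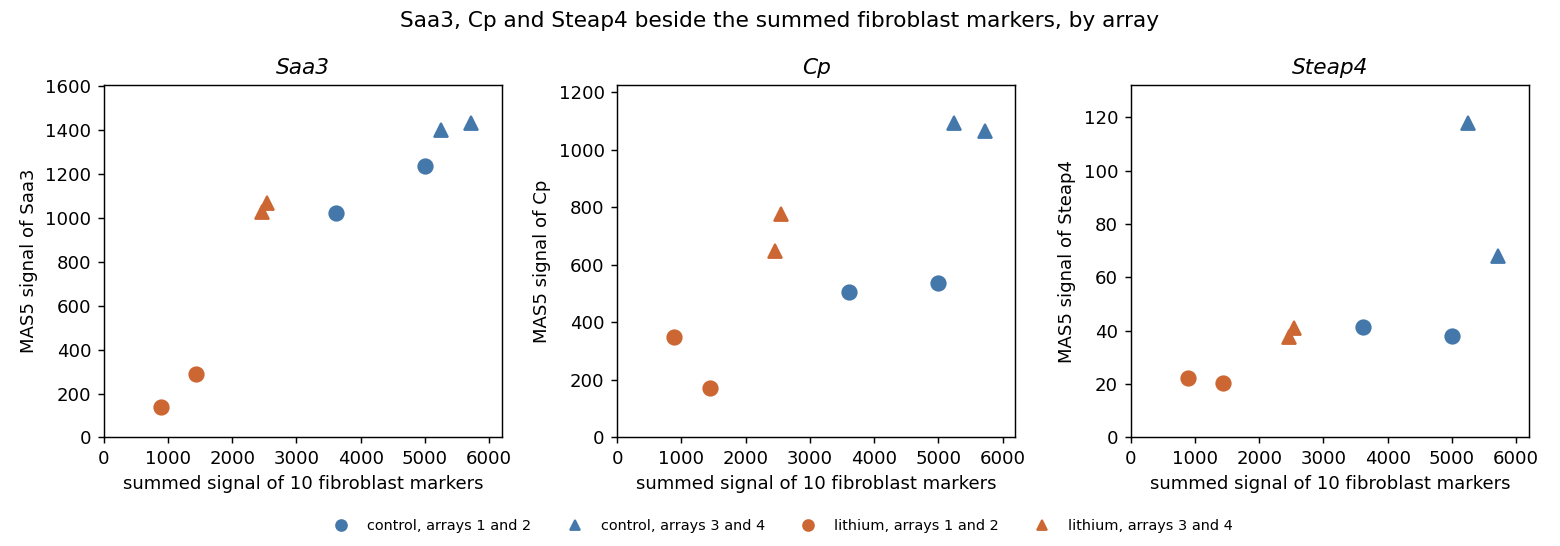
MAS5 signal of Saa3, Cp and Steap4 (y axes) against the summed signal of 10 fibroblast markers (x axis) on the 4 control (blue) and 4 lithium (orange) arrays, circles for arrays 1 and 2 and triangles for arrays 3 and 4. Lithium arrays 1 and 2 have the lowest marker sums, 890 and 1443, and the lowest signals of all 3 genes, and control arrays 3 and 4 the highest of both. The 3 genes are a selection from the 10, and not all of the 10 had this order. Lcn2 had its highest signal, 2557, on lithium array 1, and Saa2 its lowest control signal, 125, on control array 3. Whether the 3 genes and the markers are linked was not tested.

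Of the neutrophil markers, too, some fell, with 3 lower and 0 higher of the 8 measured of 10, also at an unadjusted p under 0.05. S100a8, a calcium-binding protein, fell from 315 ± 65.1 to 35.4 ± 16.4 (SD, n = 4; log2 change -3.26, SE 0.36, limma's adjusted p = 0.0162, 0.0540 with the block). Camp, a cathelicidin, fell from 88.0 ± 23.9 to 14.9 ± 4.81 (SD, n = 4; log2 change -2.58, limma's adjusted p = 0.0201, 0.0394 with the block), and Ltf, the iron-binding lactoferrin, from 54.6 ± 25.8 to 4.88 ± 1.62 (SD, n = 4; log2 change -3.40, limma's adjusted p = 0.0201, 0.0775 with the block). Without control array 3 S100a8 had an adjusted p of 0.0525 in limma's fit, and Camp and Ltf did not pass without control array 1, 3 or 4 or lithium array 1. Ltf was above background on 2 of the 4 lithium arrays. These 3 are granule or cytosolic proteins of neutrophils, and the granule proteins Ngp, Mpo and Elane were not above background on any array. The summed signal of the list was 397 to 610 in control and 51.2 to 86.2 in lithium. Most of this sum came from S100a8, Camp and Ltf, so that it mainly repeats their falls. The part of the neutrophil markers in the fall of Saa1 and Saa2 was not tested.

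Markers of other cells had fewer calls. Microglia and macrophage markers (10 of 10 measured) had 1 lower and 0 higher, Tyrobp, a signalling adaptor of myeloid cells (906 ± 82.6 to 517 ± 90.0, SD, n = 4; limma's adjusted p = 0.0374), with sums of 2062 to 2725 in control and 1544 to 2087 in lithium. Endothelial markers (8 of 8) had 1 lower, Kdr, a receptor of vascular endothelial growth factor (16.1 ± 4.53 to 6.20 ± 0.744, SD, n = 4; limma's adjusted p = 0.0321), and sums of 445 to 843 and 240 to 549. Pericyte markers (8 of 8) had 1 lower, Pdgfrb, a receptor of platelet-derived growth factor (197 ± 68.6 to 45.5 ± 20.5, SD, n = 4; limma's adjusted p = 0.0401), and sums of 1153 to 1885 and 1049 to 2028, of which Tagln had 992 and 1209.6 on average, with a median log2 change over the list of -0.77. At an unadjusted p under 0.05 each of these lists had 3 lower and 0 higher.

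Of the 13 genes of all lists that passed, all 13 were lower in lithium. With the replicate block 1 of them passed (Camp), 1 passed in every fit without 1 array (Foxc1), and 8 passed in 1 or none of these 8 fits. In the block fit the adjusted p of limma ranged from 0.0394 for Camp to 0.125 for Lum.

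The genes whose signals were most like those of Saa3 and Lcn2 over the 8 arrays differed between these members. Among 5430 genes with a mean of at least 200 in a group, Pearson's r of log2 signals with Saa3 was highest for Vcan (0.994) and Bgn (0.987), proteoglycans of the extracellular matrix, and then for Chst11, Sat2 and Dnajc10 (0.984, 0.984 and 0.982). Bgn, for example, had signals of 935, 695, 963 and 1101 in control and of 176, 258, 688 and 663 in lithium, the same low lithium arrays as Saa3. With Lcn2, r was highest for Acot7 (0.981), Mars1 (0.975), Pdlim4 (0.972), Gnpnat1 (0.963) and Map7d1 (0.958). Like Lcn2, all of these genes had their highest signal on lithium array 1, the array that stood apart. Acot7, an acyl-CoA thioesterase, had 1176 there, against 815 to 981 on the others. Their r with Lcn2 ran from 0.973 (Acot7) to 0.999 (Map7d1) within lithium. Within control it ran from 0.726 (Map7d1) to 0.982 (Acot7). The r are over 8 arrays that share 2 treatments, and each set was picked as the highest of 5430.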

How the data were processed

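RNA of 8 samples of cultured optic nerves, 4 control and 4 lithium, was hybridised to one-colour arrays. The deposited intensities are MAS5 signals on a linear scale, which the authors made in Agilent GeneSpring GX 12 from the output of GeneChip Operating Software. Of 45101 probe sets 64 controls were left out. Signals under 1 were set to 1 (14.5% of values) before log2, and limma 3.58.1 (R 4.3.3) fitted the group difference over the other 45037 probe sets with lmFit and eBayes, using no block and Benjamini-Hochberg adjustment. The script was tested on simulated data. The floor lay below the background limit of every array, 2.13 to 5.64. Fold changes of genes that were dim in a group therefore also hold differences below background. For the second Saa1 probe set the fold was 58.2 with the floor and at least 23.0 at the background limits. The number of arrays and the signal over background limit the precision.

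The 10 genes and the gene lists were chosen with earlier results of these data known. Besides them the text names up to 2 lower and 2 higher list genes past the adjusted p, Gfap, markers at background and the 5 genes most like Saa3 and Lcn2 (Pearson's r). Exceptions were chosen after their values were seen. A probe set under the highest of 27 poly-A control signals of its array was taken as not above background.

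Arrays of both groups carry the numbers 1 to 4. Same-numbered arrays deviated together from the means of their groups (correlations of 0.130 to 0.197 in the 4 pairs, limit 0.1), and the numbers were treated as pairs on this ground alone. Control and lithium arrays of unlike number inside the sets 1, 2 and 3, 4 correlated at 0.0706 to 0.131, so that these values do not part number pairs from pairs of arrays. The fit was repeated with quantile normalization, with arrays centred on their medians, with a level of 200 before the test, on log2 of the signal plus 16, on probe sets averaged by gene, without _x_at probe sets, with a robust and trended variance, with array weights, with the replicate number as a block, with a term parting arrays 1 and 2 from 3 and 4, and without each array. Python 3.11.15 and matplotlib 3.10.9 drew the figures. A comparison of the serum amyloid proteins was not run.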

Additional observations from a re-analysis of the deposited data

Results flagged for a closer look

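Hp on control array 3 had a signal of 253, and the gap to the nearest of the other 3 control arrays was 0.910 of the range of the group, above Dixon's 95% critical value for 4 samples. It was 1 of 42 groups of 4 values that were examined, and chance marks about 1 group in 20. Hp was not above background on any lithium array, and the bound of at least 4.81-fold lower was 2.02-fold without this array.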

How the results depend on the processing

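The count of genes lower in lithium, 2 of 10, was 1 with a level of 200 before the test, where 7 genes were tested and Saa2 was not, 1 without _x_at probe sets, where Saa2 has no other, and 1 with the replicate block (Saa2), where Saa1 had an adjusted p of 0.0564 in limma. It was 3 on log2 of the signal plus 16 (Saa1, Saa2 and Ptgs2). With the term for arrays 1 and 2 against 3 and 4 it was 5 (Saa1, Saa2, Ptgs2, Serpina3n and Steap4). It was 2 in each of the 8 fits without 1 array, and the count higher was 0 in all settings that were run. Ptgs2 reversed to 0.22 (adjusted p = 0.433) with the mean of its probe sets, which have opposite directions. Over 18 settings Saa1 passed in 17 (adjusted p from 0.000689 to 0.0564), and Saa2 in 16 of 16 (0.000435 to 0.0487). The block changed no other member's call. Over all probe sets 625 were lower and 425 higher, against 104 and 20 with the block, 1036 and 699 with log2 of the signal plus 16, 1764 and 1070 with the term for array pairs, and 98 to 412 lower and 71 to 205 higher without 1 array. The causes were not tested. Signals near the background limit set how low Saa1, Saa2 and Hp could be read.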
